A study of Mus musculus with 6 samples.

Results

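The respiratory chain genes described here are 101 of the 34866 gene rows in a count table from mouse liver, of which 88 are nuclear and 13 lie in the mitochondrial genome. They were chosen by symbol, with no use of their values: the NADH dehydrogenase subunits of complex I (Nduf), the succinate dehydrogenase subunits of complex II (Sdh), the cytochrome bc1 subunits of complex III (Uqcr), the cytochrome c oxidase subunits of complex IV (Cox4 to Cox8), the ATP synthase subunits of complex V (Atp5), and the encoded messengers with the prefix mt-. Subunits under other symbols, such as cytochrome c1 (Cyc1) of complex III, are not among them. The nuclear genes fall into 40 of complex I, 4 of complex II, 8 of complex III, 19 of complex IV and 17 of complex V, and the mitochondrial ones into 7, 0, 1, 3 and 2. Another 7 genes with matching symbols are annotated pseudogenes and were left out by the rule, and 4 of the nuclear genes kept (Ndufa11b, Ndufb4c, Ndufs6b and Cox6c2) are annotated as processed pseudogenes in GENCODE M21.

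RNA was sequenced from livers of male C57BL/6 mice aged 8 weeks, in 3 iD1 libraries and 3 vehicle libraries. The animals received a drug by intraperitoneal injection, per the labels. The labels give no dose, no time between injection and sampling and no target of iD1. The titles name a vehicle, while the treatment label of the same samples reads untreated, and 1 vehicle column carries a number that no sample title has. The labels do not say that each library is a separate animal, so the spread behind every p-value is that of the samples, and it may be technical.

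Complexes I to IV pass electrons from NADH and succinate to oxygen, and complexes I, III and IV pump protons as they do so. ATP synthase lets the protons back and makes ATP. Some subunits of complexes I, III and IV and of ATP synthase are encoded by the mitochondrial genome and the others by nuclear genes, and complex II is wholly nuclear. Hepatocytes hold many mitochondria to drive gluconeogenesis, urea synthesis and fatty acid oxidation.

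Libraries held 23515571 to 37613549 estimated counts. Albumin (Alb), the main hepatocyte product, had 67400, 69000 and 74300 CPM (counts scaled to library size) in iD1 livers, against 53700, 62100 and 73200 CPM in vehicle livers. The 13 hepatocyte markers summed to 122839 to 139395 CPM in iD1 and 92105 to 120930 CPM in vehicle, and 5 of them passed the test as higher (Fgb, Tat, Cyp2e1, Hnf4a and Apoa1), of which Fgb and Tat kept their calls without each library in turn, while Hnf4a and Apoa1 also lost theirs with library size alone as the scaling. The 10 neutrophil markers summed to 4.09 to 12.3 CPM in iD1 and 1.52 to 2.26 CPM in vehicle, and 3 of the 5 tested were called higher (Retnlg, S100a8 and S100a9), of which Retnlg kept its call without each library in turn. Called lower were 3 markers: Lrat of stellate cells had a log2 fold change of -1.77 (adjusted p = 0.00289 in edgeR), Krt19 of bile ducts -2.66 (adjusted p = 0.00312 in edgeR) and Fcgr2b of the liver endothelium -0.56 (adjusted p = 0.0327 in edgeR, and lost without some libraries). In edgeR each is the only fall called in its list, of 10, 6 and 10 tested markers. DESeq2 and limma-voom each called 2 of the stellate cell and 3 of the endothelial markers, in either direction. The bile duct marker Sox9 was called higher in edgeR, a call that ended with library size alone as the scaling. Of the 10 endothelial markers 5 were lower in every iD1 library and 1 higher, against 18.7% and 18.5% of all genes. The endothelial markers summed to 183 to 232 CPM in iD1 and 211 to 277 CPM in vehicle. The share called higher in edgeR was 38.5% for hepatocyte and 60% for neutrophil markers, against 8.42% of all tested genes. Lower calls made up 10% of stellate cell, 16.7% of bile duct and 10% of endothelial markers, against 8.3% of all. Whether any of these lists differs from other genes was not tested. A first principal component with 56.8% of the variance put iD1 replicate 1 nearest to the vehicle libraries. The part of these differences in the results was not tested, and in bulk tissue fewer cells of a type and less RNA per cell cannot be told apart.

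Sequences of 2 kinds are shown. The first are promoters of the nuclear genes, since many of these genes are known targets of NRF1 and of the ETS factor GABPA. They are shown for Ndufs3 (chr2:90904672-90904971, minus strand) and Uqcrc1 (chr9:108936398-108936697, plus strand), the genes with the lowest p-values in complexes I and III, as 300 bases from RefSeq on GRCm38.p6. Capitals mark CCGGAAG, the ETS core, or TGCGCA, the repeated core of the NRF1 motif, on either strand, and in Uqcrc1 a pair of TGCGCA matches lies end to end. The promoters of Atp5d and Cox7a2l, the genes with the lowest p-values in complexes V and IV, hold no match to either and are not shown.
Ndufs3: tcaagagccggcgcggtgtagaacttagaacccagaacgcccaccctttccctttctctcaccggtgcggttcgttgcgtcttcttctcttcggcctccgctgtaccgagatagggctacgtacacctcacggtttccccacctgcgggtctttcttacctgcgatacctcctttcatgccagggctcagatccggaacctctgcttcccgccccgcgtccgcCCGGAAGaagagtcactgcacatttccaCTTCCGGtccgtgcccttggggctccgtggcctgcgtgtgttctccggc
Uqcrc1: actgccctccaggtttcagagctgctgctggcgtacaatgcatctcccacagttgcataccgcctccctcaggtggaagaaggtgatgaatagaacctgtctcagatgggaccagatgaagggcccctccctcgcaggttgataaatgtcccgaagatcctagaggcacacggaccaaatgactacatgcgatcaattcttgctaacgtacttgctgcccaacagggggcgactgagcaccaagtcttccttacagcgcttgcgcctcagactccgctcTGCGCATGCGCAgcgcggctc

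Promoters were found for 66 of the 81 nuclear genes that were tested. TGCGCA lay in 18 of them (27.3%), against 8.79% of the promoters of 27025 genes, and CCGGAAG lay in 16 (24.2%), against 9.93% of all. AAGATGG, the core of the YY1 motif, lay in 16.7% of them, against 7.28% of all, whereas CCAAT lay in 42.4%, against 41.1% of all. These matches on both strands describe letters in a window and not bound sites. The 27025 genes were not limited to those tested here, and a link between matches and fold changes was not tested.

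The second kind are stretches of the mitochondrial genome that 2 messengers share, or that a nuclear copy repeats, since a read from there does not belong to a single gene. The reading frames of mt-Atp8 and mt-Atp6, which are translated from a shared messenger, overlap by 43 bases (chrM:7927-7969), or 21.1% of mt-Atp8. Those of mt-Nd4l and mt-Nd4 overlap by 7 bases (chrM:10167-10173). The overlaps are in capitals, with 20 bases on each side, from GENCODE M21 transcripts (GRCm38).
mt-Atp8 and mt-Atp6: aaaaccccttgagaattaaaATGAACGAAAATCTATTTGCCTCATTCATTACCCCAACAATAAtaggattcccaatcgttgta
mt-Nd4l and mt-Nd4: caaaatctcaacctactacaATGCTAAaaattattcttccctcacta

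The start of mt-Nd3 (chrM:9459-9489, plus strand) stands beside the start of Gm28438 (chr1:24613089-24613119, minus strand), an unprocessed pseudogene in the nuclear genome. They differ by 1 base in 345 aligned bases, T3C counted from the start of mt-Nd3, in capitals below.
mt-Nd3: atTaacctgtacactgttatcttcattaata
Gm28438: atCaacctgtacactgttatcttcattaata

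None of the nuclear subunit genes passed the test between iD1 and vehicle livers, while many other liver genes did. Of the 88, 81 had enough counts to be tested, and 0 of these 81 had an adjusted p under 0.05 in edgeR's quasi-likelihood test. The same test called 16.7% of all 13718 tested genes, 8.42% as higher and 8.3% as lower. At an unadjusted p under 0.05 there were 3 nuclear genes, against 31.3% of all genes, and DESeq2 and limma-voom each also called 0 with 3 at that level. The 95% interval of the fold change lay within 1.5-fold either way for 76 of the 81, against 36.2% of all genes. Among genes of like abundance, 20.5% of those at 30 to 100 CPM and 18.6% of those at 100 to 300 CPM were called, and 33 and 36 of the nuclear genes lie there. Among genes of like transcript length the called share was smaller, at 5.38% below 500 bases and 8.05% from 500 to 1000 bases, where 9 and 40 of the nuclear genes lie. Genes named as cytosolic ribosomal proteins (Rpl and Rps) also had few calls, at 2.17% of 92. Of these 92, the interval lay within 1.5-fold either way for 76. In 82 the fitted log2 fold change lay above 0, with a median of 0.14. Few calls and narrow intervals are thus not particular to the subunits.

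The fitted log2 fold changes ran from -0.62 for Ndufa4l2 to 0.31 for Ndufs3, with a median of 0.070 beside 0.0006 for all genes. With TMM scaling 65 of the 81 lay above 0, against 50.1% of all genes, but this direction depends on the scaling: upper-quartile factors gave a nuclear median of -0.0071, and library size alone gave -0.14 where all genes had -0.20. Relative to the median of all genes it was 0.07 with each of these scalings. By transcript length, all tested genes had TMM medians of 0.089 below 500 bases, 0.056 from 500 to 1000 and 0.039 from 1000 to 2000. The 9, 40 and 25 nuclear genes there had medians of 0.033, 0.070 and 0.084. An upward lean was thus shared by genes below 2000 bases in general. Without iD1 replicate 2 the nuclear median was -0.0017, and without vehicle replicate 2 it was 0.013. By complex the medians were 0.053 for complex I, 0.075 for complex II, 0.049 for complex III, 0.14 for complex IV and 0.084 for complex V. In 8 genes every iD1 library lay above every vehicle library and in 1 below, against 18.5% and 18.7% of all genes, or 37.2% in either direction.

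**Figure D1:**
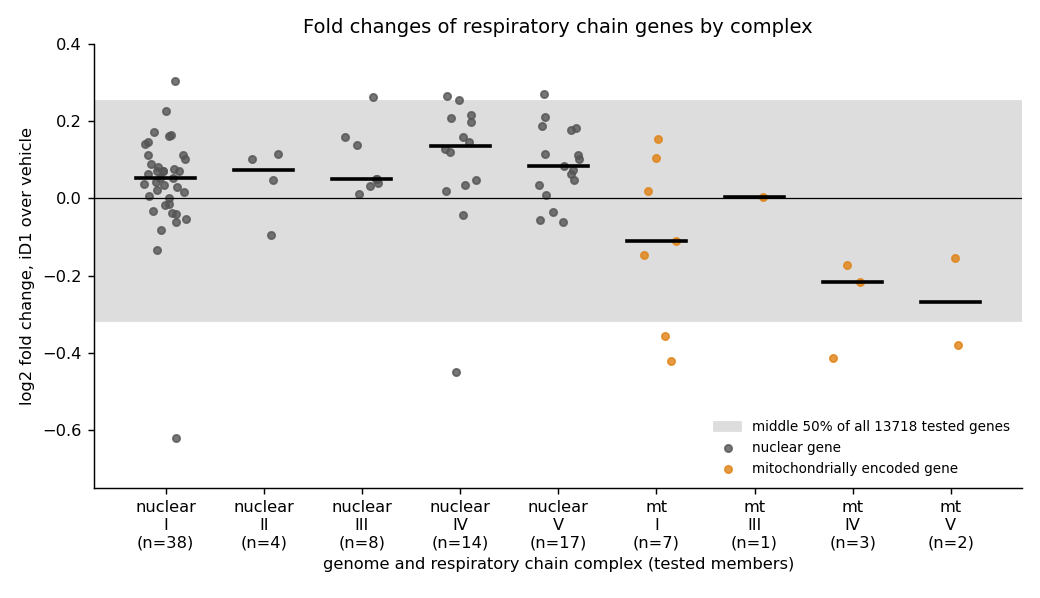
Log2 fold change, iD1 over vehicle (y axis), of each tested respiratory chain gene by genome and complex (x axis), as points with the median as a black bar; the grey band holds the middle 50% of all 13718 tested genes. With TMM scaling most nuclear genes lie between 0 and 0.3 and the lowest mitochondrial values near -0.4, and with library size alone all values shift down by about the same amount.

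Ndufs3 (chr2:90894634-90904827), a core subunit in the arm of complex I that carries iron-sulfur clusters, had 92.5, 100 and 97.8 CPM in iD1 livers, against 82.4, 72.6 and 80.4 CPM in vehicle livers. The groups did not overlap, and the log2 fold change was 0.31 (SE 0.11, adjusted p = 0.0911 in edgeR). The abundant subunit Ndufa4, named for complex I but known as a part of complex IV, had 230, 295 and 270 CPM in iD1 and 240, 233 and 275 CPM in vehicle. Its groups overlapped (log2 fold change 0.088, SE 0.14). Ndufa4l2, its relative known for induction by hypoxia, stood at 0.484, 0.453 and 0.464 CPM in iD1, against 0.699, 0.868 and 0.582 CPM in vehicle. Every iD1 value was the lower, at levels under 1 CPM (log2 fold change -0.62, SE 0.34, edgeR adjusted p = 0.248).

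In complex II, which links the citrate cycle to the chain, Sdhc, a membrane anchor, had 125, 118 and 116 CPM in iD1 and 121, 109 and 101 CPM in vehicle, and Sdhd, the other anchor, had 161, 184 and 188 CPM in iD1 and 177, 178 and 215 CPM in vehicle. Both pairs of groups overlapped, with log2 fold changes of 0.12 and -0.096. In complex III, Uqcrc1 (chr9:108936633-108949623), a core protein, had 176, 180 and 178 CPM in iD1 livers, against 159, 142 and 145 CPM in vehicle livers. These groups did not overlap, and the log2 fold change was 0.26 (SE 0.12, edgeR adjusted p = 0.152). Uqcrb, a small subunit near the quinone site, had 134, 174 and 169 CPM in iD1 and 143, 144 and 187 CPM in vehicle, with a log2 fold change of 0.012.

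In complex V, Atp5d (chr10:80138632-80145818), the delta subunit of the rotating stalk, had 188, 181 and 173 CPM in iD1 livers, against 155, 149 and 145 CPM in vehicle livers. The groups were apart, with a log2 fold change of 0.27 (SE 0.11, edgeR adjusted p = 0.142). Atp5b, the catalytic beta subunit and the highest nuclear gene by count, had 905, 1066 and 1048 CPM in iD1 and 817, 878 and 912 CPM in vehicle, which overlapped (log2 fold change 0.21, SE 0.15). The iron-sulfur protein Uqcrfs1, the complex I subunit Ndufa10 and the complex IV subunits Cox5b, Cox6a1 and Cox8a made up the rest of the 8 genes that lay apart, with log2 fold changes of 0.15 to 0.22.

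Several complex IV subunits, and Ndufa4, come as isoforms for different tissues, and the liver forms held nearly all counts. Cox4i1 had 270, 259 and 240 CPM in iD1 and 262, 195 and 188 CPM in vehicle, while Cox4i2, the form known from lung, stayed at or under 0.0482 CPM in every library. Cox6a1 had 182, 182 and 173 CPM in iD1, against 166, 147 and 153 CPM in vehicle, and its heart and muscle form Cox6a2 stayed at or under 0.0665 CPM. Cox6b1 had 131 to 171 CPM in iD1 and 140 to 170 CPM in vehicle, and the testis form Cox6b2 at most 0.202 CPM. Cox7a2 had 100, 123 and 118 CPM in iD1 and 116, 95.9 and 122 CPM in vehicle.

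Forms of muscle and brown fat were low and varied between libraries, and their groups overlapped. Cox7a1 had 0.685, 1.26 and 0.836 CPM in iD1 and 1.1, 1.45 and 1.29 CPM in vehicle, which overlapped (log2 fold change -0.45, SE 0.32). Cox8b had 0.242, 1.42 and 0.139 CPM in iD1 and 0.299, 1.01 and 0.613 CPM in vehicle, while its liver form Cox8a had 144, 166 and 160 CPM in iD1 and 125, 136 and 144 CPM in vehicle. The brown fat gene Ucp1 had 0.846, 16.6 and 1.25 CPM in iD1 and 1.46, 3.66 and 2.6 CPM in vehicle. Both Cox8b and Ucp1 were highest in replicate 2 of each group. The 8 fat markers summed to 12.1 to 57.9 CPM in iD1 and 13 to 26.1 CPM in vehicle, and the 13 muscle markers to 1.61 to 2.85 CPM in iD1 and 2.14 to 11.3 CPM in vehicle. None of these markers was at 0 in all libraries, and their part in the values of Cox7a1 and Cox8b was not tested. Besides Cox4i2, Cox6a2 and Cox6b2, the untested genes were Ndufa11b and Ndufs6b, with at most 0.386 CPM, and Cox7b2 and Cox8c, which had no count in any library.

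None of the 13 mitochondrially encoded genes passed the test either. Their log2 fold changes ran from -0.42 for mt-Nd3 to 0.15 for mt-Nd6, with a median of -0.16, against 0.070 for the nuclear genes. The SD over genes was 0.19, against 0.13 for the nuclear genes, whose full range was the wider. The count was 0 of 13 in edgeR with 1 gene (mt-Atp8) at an unadjusted p under 0.05, and 0 in DESeq2 and limma-voom with 4 and 2. With library size alone as the scaling, mt-Atp8, mt-Nd4l and mt-Co1 passed, with log2 fold changes of -0.58, -0.55 and -0.62, and the median was -0.35, or -0.15 relative to all genes. The median was -0.25 without vehicle replicate 1, and -0.033 when the unnumbered vehicle library was left out. All 13 intervals lay within 2-fold either way, as for 67.1% of all genes, and 5 within 1.5-fold. These messengers come from shared transcripts of a single small genome and are not 13 independent values.

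For complex V, mt-Atp8, a short membrane subunit, had 1464, 1446 and 1582 CPM in iD1 livers, against 1666, 1902 and 2282 CPM in vehicle livers. The groups did not overlap (log2 fold change -0.38, SE 0.17, edgeR adjusted p = 0.159). Its messenger mate mt-Atp6, the subunit that forms the proton path, had 12719, 14107 and 14477 CPM in iD1 and 13246, 14825 and 17923 CPM in vehicle, which overlapped (log2 fold change -0.16, SE 0.19). The count of mt-Atp8 was 11.5, 10.3 and 10.9% of that of mt-Atp6 in iD1 livers, against 12.6, 12.8 and 12.7% in vehicle livers. This ratio does not depend on scaling and was lower in every iD1 library.

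For complex I, mt-Nd4l had 871, 769 and 955 CPM in iD1, against 988, 1124 and 1214 CPM in vehicle, with no overlap (log2 fold change -0.36, SE 0.16, edgeR adjusted p = 0.16). Its mate mt-Nd4 had 8950, 11117 and 11789 CPM in iD1 and 9576, 11090 and 13697 CPM in vehicle (log2 fold change -0.11). Their ratio was 9.73, 6.92 and 8.1% in iD1 and 10.3, 10.1 and 8.86% in vehicle, which overlapped. The genes whose groups lay apart, mt-Atp8 and mt-Nd4l, are the shortest of the 13, with 204 and 297 bases. Against the 18.7% of all genes that lay apart in this direction, they are 2 of 13.

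The only encoded gene on the light strand, mt-Nd6, had 1567, 2759 and 2479 CPM in iD1 and 1358, 2208 and 2547 CPM in vehicle (log2 fold change 0.15, SE 0.28). Across the strand lies mt-Nd5, with 3424, 4891 and 4949 CPM in iD1 and 3410, 5502 and 5759 CPM in vehicle (log2 fold change -0.15, SE 0.24). Each gene's groups overlapped, but mt-Nd6 was 45.8, 56.4 and 50.1% of mt-Nd5 in iD1, against 39.8, 40.1 and 44.2% in vehicle, so that the ratio of these 2 genes was higher in every iD1 library. Of all mitochondrial counts mt-Nd6 made up 1.81, 2.58 and 2.21% in iD1 and 1.41, 1.97 and 1.89% in vehicle, which overlapped. The other complex I messengers mt-Nd1 and mt-Nd2 overlapped between groups, with log2 fold changes of 0.020 and 0.10, as did mt-Cytb, the cytochrome b of complex III, with 0.0024. Their signs are not stable across scalings: with library size alone they were -0.18, -0.097 and -0.20.

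For complex IV, mt-Co1, the catalytic subunit, had 16532, 21331 and 24735 CPM in iD1 livers, against 24177, 27346 and 31835 CPM in vehicle livers. Only iD1 replicate 3 reached into the vehicle range (log2 fold change -0.41, SE 0.21, edgeR adjusted p = 0.22). Within the mitochondrial counts the groups lay apart, as mt-Co1 made up 19.1, 20 and 22% of them in iD1 and 25.2, 24.4 and 23.7% in vehicle. For mt-Co2 and mt-Co3 the groups overlapped, with log2 fold changes of -0.22 and -0.17.

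**Figure D2:**
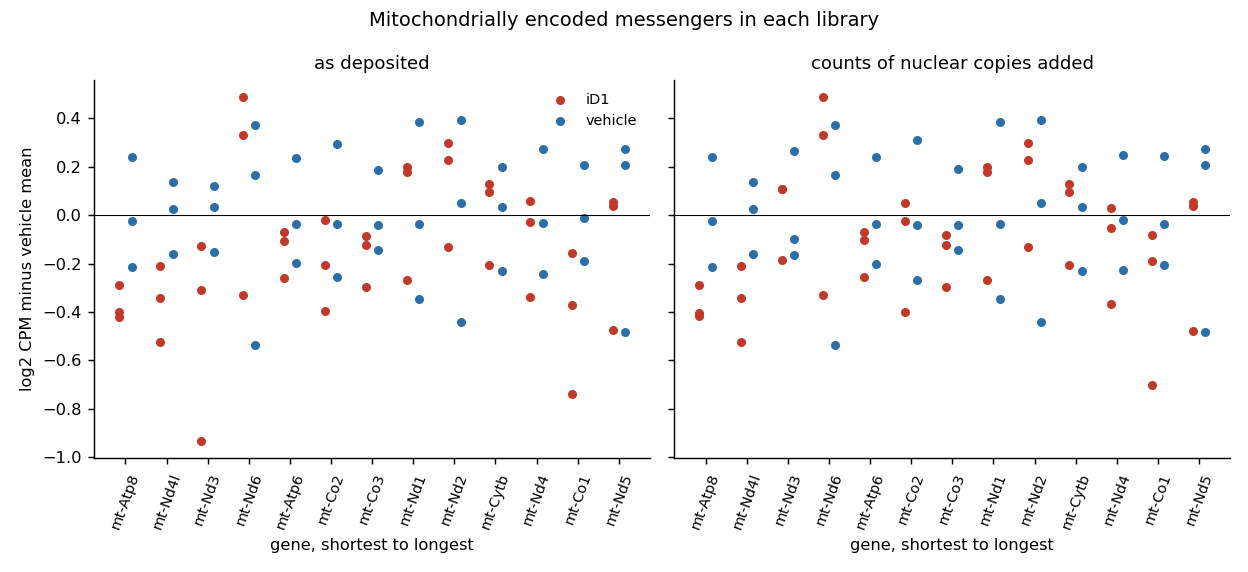
Log2 CPM of each mitochondrially encoded gene in each library minus the vehicle mean (y axis), with genes ordered from the shortest to the longest (x axis), iD1 in red and vehicle in blue. At left the counts are as deposited, and at right those of nuclear pseudogene copies are added, where mt-Nd3 of iD1 replicate 2 no longer stands near -0.9.

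The values of mt-Nd3, mt-Co1 and mt-Co2 move when counts listed under nuclear copies are added back. In the nuclear genome 7 annotated pseudogenes repeat encoded genes nearly letter for letter. Gm28438 had 138517 counts over all libraries, more than the 110202 of mt-Nd3 itself. It took 53.2, 75.3 and 56.7% of the pair's counts in iD1 and 41.6, 51.1 and 54% in vehicle, and was highest in iD1 replicate 2. As deposited, mt-Nd3 had 558, 362 and 633 CPM in iD1 and 708, 621 and 751 CPM in vehicle, with a log2 fold change of -0.42 (SE 0.21). With the copy added it had 1193, 1464 and 1464 CPM in iD1 and 1211, 1269 and 1631 CPM in vehicle, and the log2 fold change was 0.0033 (SE 0.18, edgeR adjusted p = 0.992). Neither labels nor file say how the estimates divided reads between the 2 rows.

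For mt-Co1 the copy Gm29216 (chr1:24615706-24616197) took 26, 33 and 27.7% of the pair's counts in iD1 and 23.1, 22.7 and 25.9% in vehicle. Adding it changed the log2 fold change of mt-Co1 to -0.31 (SE 0.23), and the pair still made up less of the mitochondrial counts in iD1, at 24.1, 26.5 and 27.9%, than in vehicle, at 30.2, 29.2 and 29.2%. Gm28661 (chr1:24614885-24615565), which has no mismatch to mt-Co2 over 681 bases, took 17% of the pair's counts in iD1 replicate 2 and between 0.147 and 2.08% in the other libraries. With copies added, 0 of the 13 genes passed the test, and the median was -0.13. Nothing was added to mt-Atp8, for which no copy was found, or to mt-Nd4l, whose copy Gm10222 had 0 counts, so this step does not test their values. Among the nuclear genes 14 have such copies, 20 in all, and Gm10175, Gm10221 and Gm12338 had more counts than Atp5g2, Atp5l and Cox7c, of which they are copies. Adding these gave log2 fold changes of 0.19, 0.05 and 0.15, with 0 of the 81 nuclear genes called. Ndufb4c and Cox6c2, pseudogenes among the genes chosen, were not added. Ndufb4c had 9168 counts, against 1899 for Ndufb4, and Cox6c2 had 7757, against 25567 for Cox6c. Ndufb4c plus Ndufb4 had 49.7, 67.3 and 58.8 CPM in iD1 and 60, 56.1 and 72.2 CPM in vehicle, which overlapped. The groups of Cox6c2 plus Cox6c also overlapped.

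Nuclear and mitochondrial transcripts were then set against each other within each library, which needs no scaling. The summed counts of the nuclear genes were 0.114, 0.104 and 0.0958 of those of the mitochondrial genes in iD1 livers, against 0.1, 0.0831 and 0.0776 in vehicle livers. The groups overlapped, since vehicle replicate 1 lay above iD1 replicate 3, and the ratio was 0.104 ± 0.00887 in iD1 and 0.0871 ± 0.0119 in vehicle (SD, n = 3 each). The log2 ratio of the means was 0.26, and 0.19 to 0.38 without each library in turn. It was 0.17 when Atp5b and mt-Co1, the highest gene of each set, were left out.

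The ratio was also taken within each complex that has genes of both genomes. In complex IV the ratio was 0.0459, 0.0425 and 0.0364 in iD1, against 0.0346, 0.029 and 0.0273 in vehicle, and in complex V it was 0.25, 0.256 and 0.245 in iD1, against 0.224, 0.202 and 0.184 in vehicle. In both, every iD1 library was the higher. In complex I the ratio was 0.0924, 0.0804 and 0.0753 in iD1 and 0.0991, 0.0709 and 0.0669 in vehicle, and in complex III it was 0.128, 0.119 and 0.112 in iD1 and 0.13, 0.101 and 0.106 in vehicle. These groups overlapped. Whether the complexes differ from each other in this was not tested.

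As shares of all counts, both sets were lower in iD1. The mitochondrial genes took 8.68, 9.37 and 10.3% of counts in iD1 livers, against 10.6, 12.3 and 13.6% in vehicle livers, and the nuclear genes took 0.985, 0.973 and 0.984% in iD1, against 1.07, 1.03 and 1.05% in vehicle. Neither pair of groups overlapped. The spread of the mitochondrial share over the libraries of a group was 0.802 percentage points in iD1 and 1.49 in vehicle (SD, n = 3 each), and with copies added the shares were 9.33 to 11.2% in iD1 and 11.5 to 14.8% in vehicle. The TMM factors, which rescale such shares, were 1.01, 0.878 and 0.916 in iD1 and 1.11, 1.1 and 1.01 in vehicle.

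**Figure D3:**
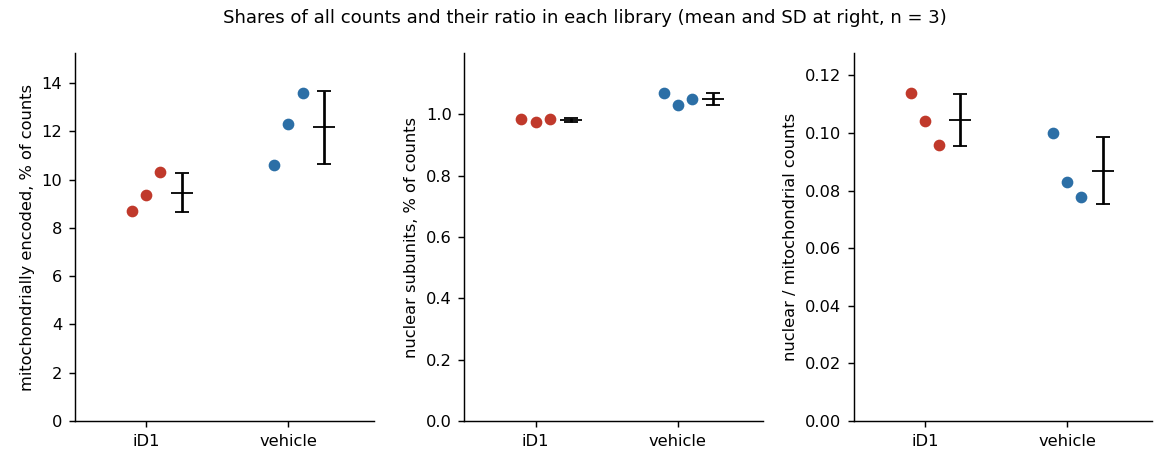
Percent of all counts from mitochondrially encoded genes (left), percent from nuclear subunit genes (middle) and the ratio of nuclear to mitochondrial counts (right) in each library, with the mean and SD of 3 libraries beside the points. The iD1 libraries lie below the vehicle libraries in both shares, at 8.68 to 10.3% and 0.973 to 0.985%, while the ratios overlap.

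Levels per transcript length, as counts per kilobase scaled to a total of 1000000 in each library, put the encoded genes far above the nuclear ones. The median level was 152 in iD1 and 161 in vehicle for the 81 nuclear genes, and 10279 in iD1 and 12761 in vehicle for the 13 mitochondrial genes. The highest nuclear level was that of Atp5b, at 700 in iD1 and 687 in vehicle, and the lowest that of Ndufa4l2, at 0.671 in iD1 and 1.18 in vehicle. Within the complexes the highest were Ndufa4, Sdhb in iD1 and Sdhd in vehicle, Uqcrb, Cox4i1 and Atp5b, and by median complex I was the lowest, at 93.2 in iD1 and 104 in vehicle. Among the encoded genes mt-Atp6 was the highest, at 26971 in iD1 and 33981 in vehicle, and mt-Nd3 the lowest, at 2010 in iD1 and 3008 in vehicle, before its copy is counted.

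**Figure D4:**
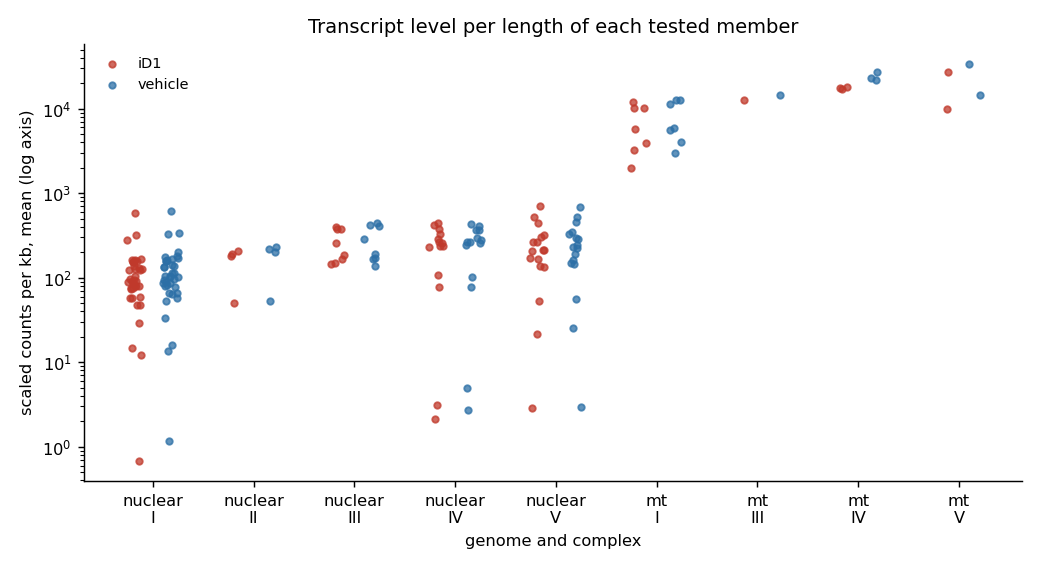
Mean level per length of each tested gene (scaled counts per kilobase, log axis) by genome and complex, iD1 in red at the left of each pair and vehicle in blue at the right. Encoded genes lie between 2010 and 33981, and nuclear genes at or under 700.

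Around these subunits, genes that assemble or supply the chain were read against the 8.42% of all tested genes called higher and the 8.3% called lower. The called share, in either direction, was below the 16.7% of all genes for the factors of complexes I, III, IV and V. It was also below 16.7% for the citrate cycle enzymes and the genes named as mitochondrial ribosomal proteins, and above it for the other lists that follow. Whether any list differs from other genes in this was not tested. Of the complex I assembly factors 2 of 17 fell (11.8%), Tmem126b and Ndufaf4. Tmem126b, of an assembly complex for the membrane arm, had 13.4, 15.5 and 14.3 CPM in iD1, against 22.7, 18.6 and 21.8 CPM in vehicle (log2 fold change -0.55, SE 0.12, edgeR adjusted p = 0.0162). Ndufaf4 had 33.9, 28.9 and 33.8 CPM in iD1, against 43.7, 43.9 and 59.2 CPM in vehicle (log2 fold change -0.61, SE 0.15, edgeR adjusted p = 0.0224). Each lost its call without 3 of the libraries, namely iD1 replicate 3, the unnumbered vehicle replicate and, for Tmem126b, vehicle replicate 1 or, for Ndufaf4, iD1 replicate 2. Of complex II, 1 of 4 factors fell, Sdhaf1, which helps insert iron-sulfur clusters, with 6.13, 8.28 and 7.71 CPM in iD1 and 11.9, 11 and 12.4 CPM in vehicle (log2 fold change -0.67, SE 0.15, edgeR adjusted p = 0.0147, and 0.0621 without the unnumbered vehicle replicate).

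Of the complex IV factors 2 of 22 fell, or 9.09%, near the 8.3% of all genes called lower. Taco1, the translational activator of the mt-Co1 message, had 7.7, 8.8 and 9.47 CPM in iD1, against 12.2, 15 and 13.5 CPM in vehicle (log2 fold change -0.65, SE 0.14, edgeR adjusted p = 0.0124, and 0.0502 without vehicle replicate 2). Pet117 had 0 counts in all 3 iD1 libraries, against 13, 13 and 11 counts in vehicle, which is at least 10.6-fold lower by a floor of 3 counts over the iD1 group. Of its exon bases 693 are also exon bases of Kat14 on the same strand, so reads from there cannot be told apart from those of Kat14. The 6 complex III factors and the 5 complex V factors had 0 calls in edgeR, with 1 and 0 at an unadjusted p under 0.05, and the lowest p-values belonged to Lyrm7 (log2 fold change -0.53, adjusted p = 0.141), Uqcc3 (0.22, 0.269), Tmem242 (-0.19, 0.349) and Tmem70 (-0.16, 0.428).

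Electron carriers and enzymes of coenzyme Q, the lipid carrier between complexes I or II and III, had 5 of 19 genes higher (26.3%, against 8.42% of all genes) and 1 lower. With library size alone as the scaling 4 of the 5 higher calls ended, those of Coq7, Coq10a, Etfdh and Coq8b (log2 fold changes of 0.29 to 0.40, edgeR adjusted p of 0.0783 to 0.183), whereas Coq10b and the lower gene stayed called, and upper-quartile factors also ended that of Coq8b. Coq7, a hydroxylase of the pathway, had 25.9, 22.9 and 23.4 CPM in iD1, against 17.4, 17.2 and 16.8 CPM in vehicle (log2 fold change 0.49, SE 0.11). Coq10a, a quinone-binding protein, had 15, 19.7 and 19.7 CPM in iD1, against 12.3, 12.3 and 10.9 CPM in vehicle (log2 fold change 0.62, SE 0.14). The lower gene was Coq8a, an atypical kinase needed for the pathway, with 105, 90.7 and 120 CPM in iD1, against 210, 203 and 155 CPM in vehicle (log2 fold change -0.85, SE 0.16). The edgeR adjusted p was 0.0154 for Coq7, 0.0164 for Coq10a and 0.008 for Coq8a, and only Coq8a kept its call without each library in turn. Coq7 lost it without vehicle replicate 2 or the unnumbered one, and Coq10a without iD1 replicate 3, without iD1 replicate 2 and without the unnumbered vehicle library. The other risers, named after their values were seen, were Etfdh, Coq10b and Coq8b, with log2 fold changes of 0.50, 1.23 and 0.52. Their calls also ended without some libraries, for all of them vehicle replicate 1, vehicle replicate 2 and iD1 replicate 3. Cytochrome c (Cycs) had 65.9, 75.5 and 66.9 CPM in iD1 and 66.9, 64.3 and 83.8 CPM in vehicle, which overlapped.

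Of the genes for copying and transcribing mitochondrial DNA 4 of 20 fell (20%, against 8.3% of all genes) and 1 rose. Mgme1, a nuclease of mitochondrial DNA replication, had 3.83, 2.91 and 2.74 CPM in iD1, against 7.82, 6.58 and 7.63 CPM in vehicle (log2 fold change -1.21, SE 0.18, edgeR adjusted p = 0.0026). Twnk, the replicative helicase, had 14.9, 14.6 and 12.2 CPM in iD1, against 21.8, 23 and 25.7 CPM in vehicle (log2 fold change -0.76, SE 0.13, edgeR adjusted p = 0.00471). Both kept their calls without each library in turn. Primpol, a primase, fell by 0.81 on the log2 scale (adjusted p = 0.0267 in edgeR). Named after their values were seen, Polg2, the accessory subunit of the polymerase, had a log2 fold change of -0.51 and Tfb2m, a transcription factor of the organelle, one of 0.39. Primpol and Tfb2m lost their calls without any library but iD1 replicate 1, and Polg2 without any at all. Tfb2m was also not called with library size alone or upper-quartile factors, and Polg2 not with DESeq2 or limma-voom. The packaging factor Tfam had 32.9, 33.8 and 32.6 CPM in iD1 and 34.3, 30.2 and 36 CPM in vehicle, and the RNA polymerase Polrmt 13.4, 14.2 and 12.7 CPM in iD1 and 11.7, 12.6 and 10.7 CPM in vehicle, neither of them called.

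Of the genes that process mitochondrial RNA 3 of 21 fell, Fastkd5, Ptcd2 and Angel2, and 1 rose, so that 19% were called, near the 16.7% of all genes. Fastkd5, which acts on precursor ends without tRNA, had 5.97, 5.37 and 4.88 CPM in iD1, against 8.75, 8.94 and 9.34 CPM in vehicle (log2 fold change -0.74, SE 0.14, edgeR adjusted p = 0.00827). Ptcd2 and Angel2 had log2 fold changes of -0.79 and -0.55 with adjusted p of 0.00896 and 0.0143 in edgeR, and these 3 genes kept their calls without each library in turn. The riser, Hsd17b10, a subunit of the mitochondrial RNase P and named after its value was seen, had a log2 fold change of 0.45 and lost its call without any library but iD1 replicate 1, and with library size alone (adjusted p = 0.13 in edgeR). Lrpprc, which stabilises the encoded messengers, had 91.6, 81.5 and 102 CPM in iD1 and 96.6, 94.7 and 91.1 CPM in vehicle, with overlapping groups.

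Among regulators of mitochondrial biogenesis 3 of 15 rose (20%, against 8.42% of all genes) and 1 fell. Sirt1, a deacetylase, had 14.8, 13.5 and 13.6 CPM in iD1, against 8.91, 8.41 and 8.09 CPM in vehicle (log2 fold change 0.72, SE 0.12, edgeR adjusted p = 0.00442). Pprc1, a coactivator of the PGC-1 family, had 13.3, 12.6 and 11.3 CPM in iD1, against 7.88, 7.95 and 7.96 CPM in vehicle (log2 fold change 0.64, SE 0.12, edgeR adjusted p = 0.00851). Both kept their calls without each library in turn, but the call of Pprc1 ended with library size alone (log2 fold change 0.44, adjusted p = 0.0667 in edgeR). Ppargc1a, the coactivator PGC-1 alpha, had 9.79, 22.2 and 23.5 CPM in iD1, against 6.05, 7.52 and 7.26 CPM in vehicle (log2 fold change 1.41, SE 0.32, edgeR adjusted p = 0.0262). Its call was lost without any library but iD1 replicate 1, whose value was the lowest of its group. The gene that fell was Esrra, a nuclear receptor that works with PGC-1 alpha, named after its value was seen, at -0.49 on the log2 scale, and its call ended without any library but iD1 replicate 3 and vehicle replicate 1. Nrf1 and Gabpa, whose motifs are described above, had log2 fold changes of 0.14 and -0.036 and were not called.

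Of the citrate cycle enzymes 1 of 14 rose (7.14%), fumarase (Fh1), with 261, 416 and 303 CPM in iD1, against 144, 150 and 199 CPM in vehicle (log2 fold change 0.99, SE 0.20, edgeR adjusted p = 0.0105). Of the nucleotide and phosphate carriers 2 of 8 rose. Slc25a25, which exchanges ATP-magnesium for phosphate, had 229, 328 and 297 CPM in iD1, against 93.9, 111 and 85.2 CPM in vehicle (log2 fold change 1.56, SE 0.17, edgeR adjusted p = 0.000699). Ucp2, of the uncoupling protein family, had 26.4, 26.2 and 30.6 CPM in iD1, against 12.1, 14.7 and 10.4 CPM in vehicle (log2 fold change 1.16, SE 0.15, edgeR adjusted p = 0.00127). These 3 kept their calls without each library in turn. Of the genes named as mitochondrial ribosomal proteins, taken by symbol (Mrpl and Mrps) and not by function, 7 of 78 fell and 1 rose. The 8.97% called lower are near the 8.3% of all genes and the 10.3% called in either direction below the 16.7% of all, with a median log2 fold change of 0.012. Those lowest in p were Mrpl49, Mrps36 and Mrpl19, at -0.54, -0.56 and -0.53. Mrps36 lost its call without iD1 replicate 3 or any vehicle library and Mrpl19 without any library but iD1 replicate 1. The riser Mrpl38, named after its value was seen, had 62.6, 112 and 165 CPM in iD1 and 43.7, 41.1 and 39.8 CPM in vehicle, and lost its call without iD1 replicate 2 or any vehicle library.

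**Figure D5:**
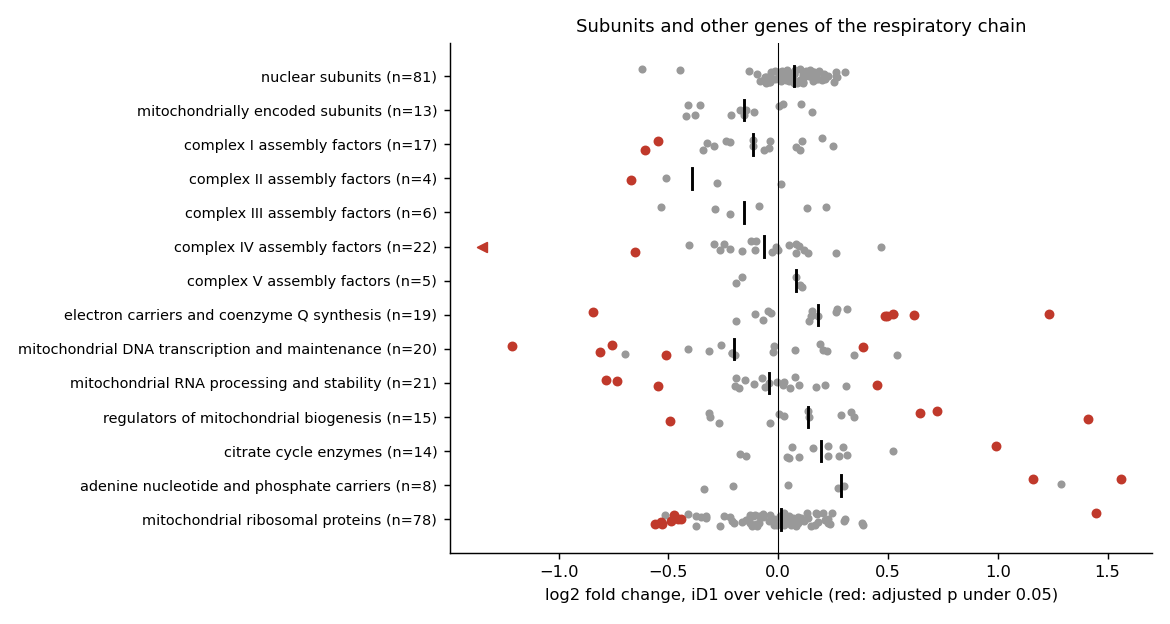
Log2 fold change, iD1 over vehicle (x axis), of nuclear and encoded subunits and of the other gene lists (rows), with genes at an adjusted p under 0.05 in red, the others in grey and the median as a black bar. The red arrow is Pet117, with no iD1 count, and no subunit is red, whereas 5 electron carrier and coenzyme Q genes stand in red above 0, of which 4 lose their calls with library size alone.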

How the data were processed

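Per the labels, livers were sequenced from stranded mRNA libraries. The authors deposited estimated counts per gene, of which 22.6 to 27.7% per library were not whole, and these were rounded for testing. The sources used here give no aligner, quantifier, build or annotation. Of 34866 identifiers 34582 had a symbol, and 93.4% of the versioned ones were in GENCODE M21 (GRCm38), from which lengths of principal transcripts and positions were taken. Genes kept by filterByExpr (minimum count 10) were compared with edgeR 4.0.16 (R 4.3.3; TMM, robust quasi-likelihood F test, two-sided, Benjamini-Hochberg over 13718 genes, threshold 0.05), with all 6 libraries and no covariate. The SE is the log2 fold change divided by the square root of F, and CPM use TMM-scaled library sizes. An exact permutation test of 3 against 3 cannot reach that threshold and was not used.

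The fit was tested on simulated counts. Copies of a gene are annotated pseudogenes, not themselves among the genes chosen, with at least 50% of their 31-base windows in it. The alternatives were other scalings, DESeq2 1.42.0, limma-voom 3.58.1, other filters and thresholds, each library left out, a replicate block and copies added. No 2 libraries of a group agreed within sampling noise. The encoded genes, the isoform pairs, the highest and most changed subunit of each complex and up to 3 called genes of each list are named, and others are marked where named. The genes and lists were chosen with earlier results of these data known.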

Additional observations from a re-analysis of the deposited data

How the results depend on the processing

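Nuclear calls stayed at 0 in every setting. Encoded calls did too, apart from 3 with library size only. The nuclear median moved to -0.14 with library size only. Of all tested genes 2293 were called, 1212 to 2574 without each library in turn, 825 at an adjusted p of 0.01 and 768 with a replicate block. The block used numbers 1 and 2. Deviations of libraries that share a number correlated by 0.169 and -0.127, so the numbers were not shown to pair the libraries. The ratio of nuclear to mitochondrial counts had a log2 value of 0.19 to 0.38, and the mitochondrial share -0.46 to -0.28, without each library in turn. No gene row had a symbol of a mitochondrial rRNA or tRNA, so a share with them could not be given.

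Signs of genes that were not called turned round as follows, and no called gene of those named reversed. With library size only, log2 fold changes were -0.18 for mt-Nd1, -0.097 for mt-Nd2, -0.055 for mt-Nd6, -0.20 for mt-Cytb, -0.16 for Cox6b1, -0.17 for Cox7a2, -0.12 for Ndufa4, -0.088 for Sdhc and -0.19 for Uqcrb. With upper-quartile factors they were -0.052 for mt-Nd1, -0.071 for mt-Cytb, -0.027 for Cox6b1, -0.042 for Cox7a2 and -0.062 for Uqcrb. mt-Cytb was -0.0012 with encoded genes left out of the scaling, -0.014 with no filter and -0.017 at a minimum count of 50, and Uqcrb -0.0036 and -0.0075 with these filters. Cox8b was 0.21 with the replicate block, and mt-Nd3 0.0033 with copies added, an alternative chosen after seeing the data. Without each library in turn the ranges were -0.14 to 0.23 for mt-Nd1, -0.087 to 0.31 for mt-Nd2, -0.22 to 0.034 for mt-Nd4, -0.35 to 0.011 for mt-Nd5, -0.068 to 0.36 for mt-Nd6 and -0.10 to 0.10 for mt-Cytb. For nuclear genes they were -0.021 to 0.16 for Cox6b1, -0.064 to 0.12 for Cox7a2, -1.75 to 0.46 for Cox8b, -0.0017 to 0.18 for Ndufa4 and -0.065 to 0.15 for Uqcrb. Not every called gene of the lists was followed through these settings. Of the 45 that were, 26 lost their call without at least 1 library. Of the 24 of them called higher 11 lost it with library size only and 5 with upper-quartile factors, against 0 of the 21 called lower with either. These scalings shift fitted values down, with medians of all genes of -0.20 and -0.074, so they work against higher calls and not against lower ones. Causes were not tested. With 3 libraries a group, changes of nuclear subunits within their intervals were not detectable.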

Other observations

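Among genes of these complexes that the symbols used leave out, 4 were looked at, and none of them was called. Ndufab1, the acyl carrier subunit of complex I, averaged 58.9 ± 2.47 CPM in iD1 livers and 57.3 ± 7.77 CPM in vehicle livers (SD, n = 3 each). Cyc1, the cytochrome c1 of complex III, averaged 158 ± 2.17 CPM in iD1 and 145 ± 13.5 CPM in vehicle (SD, n = 3 each). Usmg5, a small membrane subunit of ATP synthase, averaged 81.4 ± 6.9 CPM in iD1 and 78.8 ± 12.2 CPM in vehicle (SD, n = 3 each). Atpif1, the inhibitor of ATP synthase, averaged 10.2 ± 2.02 CPM in iD1 and 11.5 ± 3.61 CPM in vehicle (SD, n = 3 each). Their log2 fold changes were 0.038, 0.12, 0.047 and -0.18 in this order.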
